A study of Mus musculus with 10 samples.

Results

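The microRNAs miR-221-3p and miR-222-3p were followed in the small extracellular vesicles that C57BL/6J mice release from fat and carry in plasma. They were chosen by name as the guide strands of the vessel and fat associated miR-221 and miR-222 genes, and both of these 2 members are listed in both deposited tables, among 721 miRNAs listed in either. The 10 small RNA libraries come from vesicles of brown adipose tissue (BAT) or of plasma: Exe BAT (3 libraries), Sed BAT (3), Exe plasma (2) and Sed plasma (2). The series sets vesicles before exercise beside vesicles after it, so Exe is read here as exercised and Sed as sedentary, although the labels give every library, Sed included, the same training of 90 min sessions, 2 per day, for 4 weeks. The plasma libraries are described as wt, read here as wild type, and the BAT libraries carry no such mark of genotype. The labels give no age, sex or number of pooled animals, and nothing in them ties a replicate to its own animal or pool. The p-values therefore cover only library-to-library spread, which may be technical.

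MicroRNAs are short RNAs that guide Argonaute proteins to messenger RNAs, chiefly through the seed, the stretch of bases from the second to the eighth. The genes of miR-221 and miR-222 lie side by side and are known to be transcribed together. Their shared targets include the receptor KIT and the cell cycle inhibitor p27 (Cdkn1b). In human endothelial cells both restrain tube formation through KIT, in rat arteries both favour smooth muscle growth, and in mouse and human fat their levels are tied to obesity.

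The mature sequences are shown because the members share a seed but differ at positions after it, which lets sequencing count them apart. They come from RefSeq (GRCm38.p6), are written 5′ to 3′, and carry the seed in capitals.
miR-221-3p: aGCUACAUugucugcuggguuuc
miR-222-3p: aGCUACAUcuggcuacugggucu

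Both are 23 bases long, the first 8 bases are the same, and 11 of 23 positions match when they are laid over each other without gaps. Both also hold the stretch cugggu after the seed, out of step by position, so that count understates their likeness. This seed is carried by 3 of the 1679 mature miRNAs that RefSeq lists. The third, miR-1928, is listed in neither deposited table. Names with a RefSeq mature sequence, and so searched for the seed, are 605 of the 721 listed.

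Both hairpins lie on the minus strand of chromosome X, Mir222 at chrX:19146893-19146971 and Mir221 at chrX:19146294-19146388 (GRCm38), with 504 bases between them and Mir222 first in the direction of transcription. GENCODE M21 annotates no other gene over them, and each is the single exon of its own miRNA gene. The build of these coordinates is not one that the submitters' processing notes name. The hairpins are shown to place the counted arm, which is in capitals.
Mir222: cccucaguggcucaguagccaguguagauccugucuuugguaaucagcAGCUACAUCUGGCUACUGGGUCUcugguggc
Mir221: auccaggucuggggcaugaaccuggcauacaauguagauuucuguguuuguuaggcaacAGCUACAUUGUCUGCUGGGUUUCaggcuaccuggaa

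The 3p arm made up nearly all reads of either hairpin. For miR-221 it held 118 of 124 reads in BAT vesicles (95.2%, exact 95% interval 89.8 to 98.2%) and 252 of 253 in plasma vesicles (99.6%, 97.8 to 99.99%). The opposite arm miR-221-5p had 2, 1 and 0 reads in Exe BAT, 3, 0 and 0 in Sed BAT, none in either Exe plasma library and 0 and 1 in Sed plasma. For miR-222 the 3p arm held 252 of 253 reads in BAT vesicles, the exception being 1 read of miR-222-5p in Sed BAT replicate 2, and miR-222-5p is not among the miRNAs listed for plasma. Such intervals, here and below, cover counting error only. They treat reads as independent molecules, so PCR copies among the reads would make them too narrow.

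The BAT libraries held 104064 to 172279 miRNA reads and the plasma libraries 1209116 to 1798169. All 4 brown fat markers looked for (miR-193b-3p, miR-365-3p, miR-378a-3p and miR-455-3p) had reads in BAT vesicles and together took 22.9 to 29.8% of Exe BAT reads and 6.52 to 22.8% of Sed BAT reads, against 0.0265 to 0.149% in Exe plasma, where miR-193b-3p had no read, and 0.157 to 0.50% in Sed plasma, with 3 of the 4 listed for plasma. The lowest BAT value is that of Sed BAT replicate 2, which stood apart, its miR-378a-3p reads numbering 3804 where no other BAT library had under 24801. Of plasma reads, miR-451a of red cells took 11.1 and 13.1% of Exe reads and 69.8 and 52.8% of Sed reads.

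In BAT vesicles neither member passed the test between Exe and Sed, and miR-222-3p was the more abundant of the pair in every library. For miR-221-3p there were 18, 15 and 26 reads in Exe BAT and 32, 16 and 11 in Sed BAT. Both groups summed to 59 reads and overlapped, with the highest and the lowest library both in Sed BAT. As unscaled counts per 1000000 miRNA reads of the library (unscaled CPM), these are 154, 94.5 and 151 in Exe BAT and 189, 154 and 94.8 in Sed BAT, which placed the miRNA between rank 134 and rank 181 in its library.

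For miR-222-3p there were 39, 42 and 44 reads in Exe BAT and 55, 43 and 29 in Sed BAT, 125 and 127 in all. The Exe libraries lay inside the range of the Sed libraries on the read scale. In unscaled CPM they are 335, 264 and 255 in Exe BAT and 325, 413 and 249.8 in Sed BAT, at ranks 100 to 125.

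CPM on the TMM scale (with edgeR's trimmed mean factors, which keep a few abundant miRNAs from setting the scale) averaged 140 ± 36.7 in Exe BAT and 142 ± 55.5 in Sed BAT for miR-221-3p (SD, n = 3 each). For miR-222-3p they averaged 297 ± 37.8 in Exe BAT and 314 ± 44.7 in Sed BAT. The log2 fold change was -0.053 ± 0.37 for miR-221-3p (SE, 95% interval -0.88 to 0.78, edgeR adjusted p = 0.917) and -0.087 ± 0.25 for miR-222-3p (-0.65 to 0.47, edgeR adjusted p = 0.794). By absolute size these were 193rd and 186th of 199 tested miRNAs, whose median absolute value was 0.56.

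Thus 0 of the 2 members passed an adjusted p of 0.05 in BAT vesicles, where 22.6% of tested miRNAs did (9.55% higher and 13.1% lower in Exe), and neither had groups apart on the TMM scale, as 44.2% did. Leaving out Sed BAT replicate 2 gave -0.082 for miR-221-3p and 0.0084 for miR-222-3p. The sign of both values turned with the scaling, to 0.12 and 0.061 with upper-quartile factors, so no direction is given for either.

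**Figure D1:**
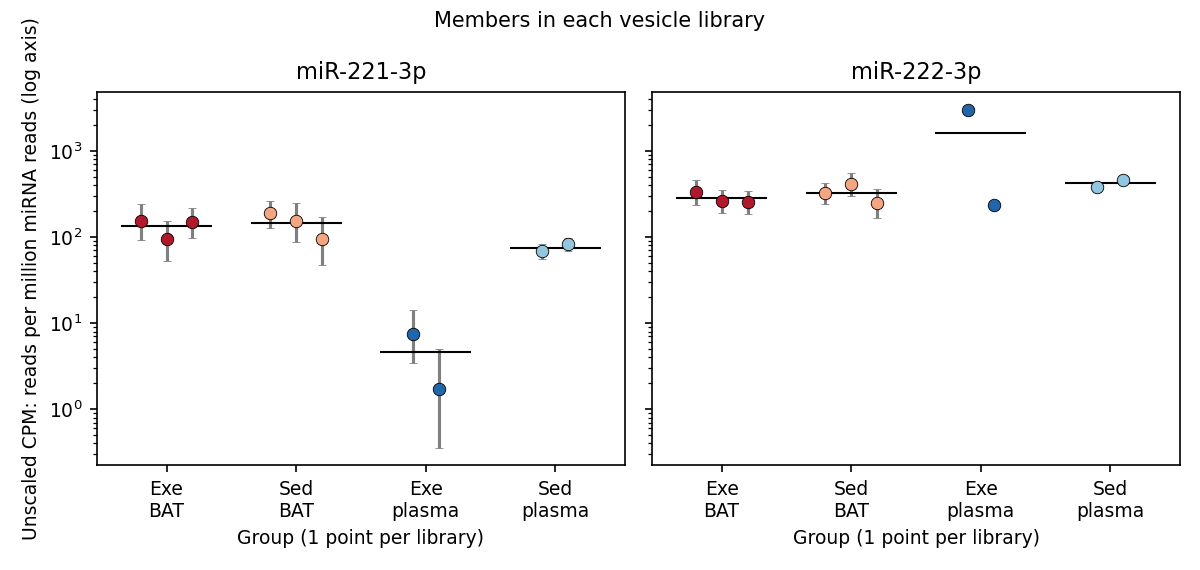
Unscaled CPM (reads per 1000000 miRNA reads, log axis) of miR-221-3p (left) and miR-222-3p (right) in each library of Exe BAT, Sed BAT, Exe plasma and Sed plasma vesicles; points are libraries, grey bars exact 95% counting intervals, black lines group means. The BAT groups overlap for both members, whereas miR-221-3p is at 7.44 and 1.70 in Exe plasma, against 68.6 and 82.3 in Sed plasma, and the 2 Exe plasma values of miR-222-3p lie either side of the Sed plasma ones.

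In plasma vesicles neither member passed the edgeR test between Exe and Sed, although miR-221-3p had fewer reads in both Exe libraries and the groups of miR-222-3p overlapped. There were 9 and 3 reads of miR-221-3p in Exe plasma and 92 and 148 in Sed plasma, from libraries of similar depth. In unscaled CPM that is 7.44 (3.40 to 14.1, exact 95% counting interval) and 1.70 (0.350 to 4.96) in Exe plasma, against 68.6 (55.3 to 84.1) and 82.3 (69.6 to 96.7) in Sed plasma. Both Exe values lay below both Sed values, with counting intervals that do not meet.

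The reads of miR-222-3p numbered 3620 and 421 in Exe plasma and 520 and 832 in Sed plasma, or 2994 and 238 unscaled CPM in Exe and 388 and 463 in Sed. Exe plasma replicate 1 was far above both Sed libraries and Exe plasma replicate 2 below both, so the groups overlapped. It ranked 41st and 104th among the miRNAs of the Exe plasma libraries and 57th and 54th in Sed plasma.

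On the TMM scale the CPM of miR-221-3p averaged 3.31 ± 2.41 in Exe plasma and 95.4 ± 16.3 in Sed plasma (SD, n = 2 each). Its log2 fold change was -4.82 ± 2.30 (SE, 95% interval -10.4 to 0.79, edgeR adjusted p = 0.204). That of miR-222-3p averaged 1122 ± 1268 in Exe plasma and 538 ± 94.1 in Sed plasma, a log2 fold change of 1.06 ± 1.52 (-2.64 to 4.76, edgeR adjusted p = 0.64). Neither passed in edgeR's quasi-likelihood test, which called 0% of the 182 miRNAs tested in plasma (33.0% at an unadjusted p under 0.05, where miR-221-3p had 0.0803 and miR-222-3p 0.51).

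With DESeq2 miR-221-3p did pass (-5.004, DESeq2 adjusted p = 0.0101), in a test that called 14.3% of the same miRNAs lower in Exe. Over all alternatives of scaling, filter, test and left-out library its value ran from -5.68 to -3.65, with adjusted p between 0.0101 and 0.63. Groups that do not overlap were common in plasma, at 30.8% of tested miRNAs lower in Exe and 59.3% in either direction. Without Exe plasma replicate 1 the value of miR-222-3p was -1.10, and without Exe plasma replicate 2 it was 2.49.

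Because miR-451a took so unequal a share of the plasma libraries, the members were also set against the remaining reads. Per 1000000 reads other than miR-451a, miR-221-3p stood at 8.37 and 1.96 in Exe plasma and at 227 and 174 in Sed plasma, and miR-222-3p at 3368 and 274 in Exe plasma and 1284 and 979.6 in Sed plasma. The order of the libraries was the same with miR-451a counted, except that Sed plasma replicate 1 moved above Sed plasma replicate 2 for both members. The summed red cell markers (miR-451a, both arms of miR-144, and miR-486a-5p with its identical copy miR-486b-5p, counted once) took 12.5 to 13.99% of reads in Exe plasma and 52.8 to 69.97% in Sed plasma, with miR-144-5p at 0 in Sed plasma. That sum is nearly all miR-451a, and the markers did not move as 1 group. The identical pair of miR-486 miRNAs lay the other way, at 1.41 and 0.847% in Exe plasma and 0.166 and 0.0064% in Sed plasma (log2 fold change 2.72 ± 1.58, edgeR adjusted p = 0.279), and miR-144-3p had 8 and 2 reads in Exe plasma and 0 and 29 in Sed plasma. Of 4 red cell markers tested, the 2 above 0 were this identical pair, which is 1 measurement. The 2 below were miR-451a (-3.03 ± 0.57) and miR-144-3p (-1.57 ± 1.91). All 5 leukocyte markers (both arms of miR-142a, miR-150-5p, miR-155-5p and miR-223-3p) had reads in both plasma groups and summed to 1.98 to 2.25% in Exe plasma and 0.156 to 0.211% in Sed plasma. Most of that was miR-150-5p in Exe plasma, at 1.90 and 1.85%, and in Sed plasma replicate 1, at 0.211%. In Sed plasma replicate 2 miR-150-5p was at 0.0534%, and most of the sum was miR-223-3p. The groups overlapped for miR-223-3p, at 0.331 and 0.0943% in Exe plasma and 0 and 0.101% in Sed plasma, and miR-142a-3p had 1 and 0 reads in Exe plasma and 0 and 24 in Sed plasma. The platelet markers, miR-191-5p and again miR-223-3p, summed to 2.11 to 4.07% in Exe plasma and 1.21 to 1.37% in Sed plasma. Such shares count miR-451a among the reads, and its larger part in Sed plasma lowers those of other miRNAs there. On the TMM scale neither platelet marker passed, with log2 fold changes of 0.44 ± 0.62 for miR-191-5p (SE, edgeR adjusted p = 0.64) and 1.60 ± 2.56 for miR-223-3p (edgeR adjusted p = 0.67). The part of red cells, leukocytes and platelets in the members' plasma values was not tested.

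The plasma table also holds a second whole number beside each read count, of unstated making. Relative to the reads it was 71.0 and 61.1% in Exe plasma and 30.2 and 4.67% in Sed plasma over all miRNAs. For miR-221-3p it was 9 and 3 in Exe plasma and 15 and 31 in Sed plasma. For miR-222-3p it was 3483 and 420 in Exe plasma and 80 and 163 in Sed plasma. Its library totals differ too much for these raw values to be compared between groups, at 858401 and 1078779 in Exe plasma and 405717 and 84021 in Sed plasma. Fitted in place of the reads, with scaling of its own, it gave -4.88 for miR-221-3p (edgeR adjusted p = 0.561) and 1.03 for miR-222-3p (edgeR adjusted p = 0.801).

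Since both members are counted in the same library, their balance needs no scaling between libraries. In BAT vesicles miR-221-3p made up 31.6, 26.3 and 37.1% of the summed reads of the pair in Exe and 36.8, 27.1 and 27.5% in Sed. Those 6 shares overlapped between groups, and each lay inside the counting interval of the others (the narrowest ran from 26.7 to 47.8%, exact 95%), but for 26.3% in Exe BAT replicate 2. In Sed plasma the share was 15.0% (12.3 to 18.1%) and 15.1% (12.9 to 17.5%), and in Exe plasma 0.248% (0.113 to 0.470%) and 0.708% (0.146 to 2.05%).

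Put as reads of miR-222-3p for each read of miR-221-3p, that is 2.17, 2.80 and 1.69 in Exe BAT and 1.72, 2.69 and 2.64 in Sed BAT. In plasma it is 402 and 140 in Exe and 5.65 and 5.62 in Sed. The log2 ratio of miR-221-3p to miR-222-3p averaged -1.12 ± 0.36 in Exe BAT and -1.20 ± 0.36 in Sed BAT (SD, n = 3 each), a difference of 0.08 (two-sided exact permutation p = 0.9, with 0.1 the smallest possible).

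In plasma it averaged -7.89 ± 1.07 in Exe and -2.495 ± 0.006 in Sed (SD, n = 2 each), a difference of -5.40 (two-sided exact permutation p = 0.33, the smallest that 2 libraries against 2 allow). That is a 42.1-fold lower ratio in Exe plasma, seen in both of its libraries. With 1 library left out the difference ran from -6.16 to -4.64, and from the second whole numbers it was -5.46.

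**Figure D2:**
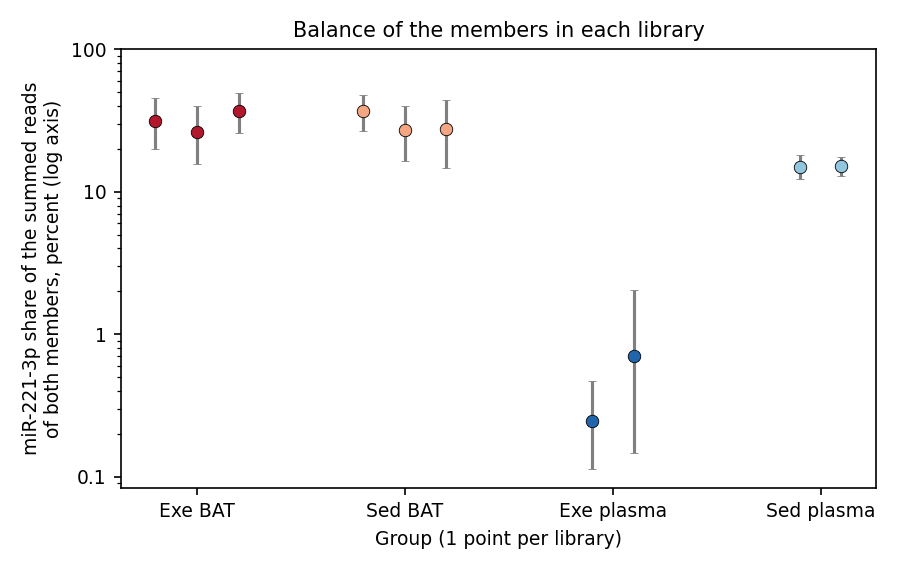
Share of miR-221-3p in the summed reads of miR-221-3p and miR-222-3p, in percent on a log axis, for each library of the 4 groups; points are libraries and grey bars exact 95% binomial intervals. The BAT libraries lie between 26.3 and 37.1%, the Sed plasma libraries at 15.0 and 15.1%, and the Exe plasma libraries at 0.248 and 0.708%.

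Whether the exercise effect differed between vesicle sources was tested with edgeR in all 4 groups together, over the 234 miRNAs that passed the filter among 394 listed in both tables. There, source, table and any batch cannot be told apart. The joint fit uses 1 estimate of spread per miRNA for both sources. In the separate fits the SE of miR-221-3p was 0.37 in BAT and 2.30 in plasma, so the joint SE may be too small for the plasma side. For miR-221-3p the effect in BAT minus the effect in plasma was 5.02 ± 1.40 (SE, log2, 95% interval 1.92 to 8.12, edgeR adjusted p = 0.0271), with both Exe plasma libraries below both Sed plasma libraries and overlapping groups in BAT. For miR-222-3p it was -1.05 ± 1.30 (-3.93 to 1.84, edgeR adjusted p = 0.535). So 1 of the 2 members passed, where 29.1% of tested miRNAs did, 16.7% with an effect higher in BAT.

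The value of miR-221-3p kept its sign in all alternatives that tested it, from 3.89 with library size alone to 6.54 without Exe plasma replicate 1, but it no longer passed without a filter (4.79), nor without Exe BAT replicate 1 (4.87, adjusted p = 0.0678), Exe BAT replicate 2 (5.05), Sed BAT replicate 1 (5.13), Sed BAT replicate 2 (4.64) or Sed BAT replicate 3 (4.88), over which edgeR's adjusted p ran up to 0.07. That of miR-222-3p turned to 2.001 without Exe plasma replicate 1, to 0.31 with upper-quartile factors and to 0.22 with limma-voom.

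Levels in the vesicle sources were compared in the same fit. In Exe libraries miR-221-3p was higher in BAT than in plasma vesicles (log2 fold change 3.36 ± 1.08, SE, edgeR adjusted p = 0.0194) and miR-222-3p lower (-4.05 ± 0.96, edgeR adjusted p = 0.00455). In unscaled CPM miR-221-3p averaged 133 ± 33.6 in Exe BAT and 4.57 ± 4.06 in Exe plasma, and miR-222-3p averaged 285 ± 43.3 in Exe BAT and 1616 ± 1948 in Exe plasma (SD, n = 3 and 2). Calls of this kind were frequent, at 41.0% of miRNAs higher in BAT and 25.6% lower. The value of miR-222-3p was -0.98 without Exe plasma replicate 1, where the call was lost (edgeR adjusted p = 0.14), as it was with limma-voom (-2.77). That of miR-221-3p was at 3.27 without Exe BAT replicate 1, where edgeR's adjusted p was 0.053.

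In Sed libraries miR-222-3p was lower in BAT than in plasma vesicles on this scale (-3.005 ± 0.931, SE, edgeR adjusted p = 0.0238, in a comparison with 20.1% of miRNAs lower in BAT), and miR-221-3p did not pass (-1.66 ± 0.91, edgeR adjusted p = 0.171). These values rest on the scaling. In unscaled CPM miR-222-3p averaged 329 ± 81.8 in Sed BAT and 425 ± 53.1 in Sed plasma, and miR-221-3p 146 ± 47.6 in Sed BAT and 75.4 ± 9.71 in Sed plasma. With library size alone, which moved the median of all miRNAs by 2.63, the log2 fold changes were -0.36 for miR-222-3p (edgeR adjusted p = 0.73) and 0.96 for miR-221-3p, a turned sign. The call of miR-222-3p was also lost with the replicate number as a block (-2.99, adjusted p = 0.0741), with limma-voom (-2.995), with low miRNAs removed at a mean under 50 counts (-2.13) and without Sed BAT replicate 1 (-2.83), Sed BAT replicate 2 (-2.87), Sed BAT replicate 3 (-2.88) or Sed plasma replicate 2 (-2.60), while the block also took the Exe call of miR-221-3p (3.54, adjusted p = 0.0516).

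**Figure D3:**
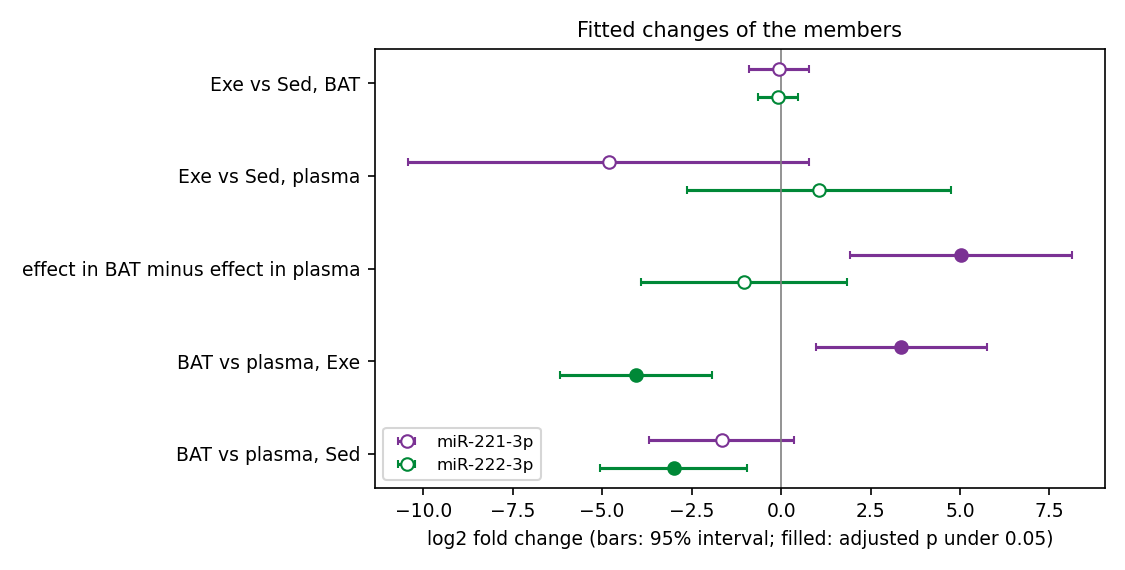
Log2 fold changes of miR-221-3p (purple) and miR-222-3p (green) in 5 contrasts of the edgeR fits, with 95% intervals; filled points passed an adjusted p of 0.05. Both members sit at -0.053 and -0.087 in BAT with short intervals, while the plasma intervals run from -10.4 to 0.79 and from -2.64 to 4.76.

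How neighbouring miRNA genes moved was looked at after the members' values were seen, by pairing tested miRNAs with the next one on the same strand within 10 kb. Mature miRNAs made by more than 1 gene were left out first, and of the arms that remained the one with more reads was used. A minor arm therefore stands for some genes. In BAT vesicles such arms included let-7c-2-3p, miR-30c-1-3p and miR-24-1-5p, in pairs that differed by 3.52, 2.88 and 2.17. Those pairs widen the BAT spread, whereas miR-24-2-5p, another such arm, differed from miR-27a-3p by 0.42. In BAT vesicles the members' changes differed by 0.03, against a median of 0.82 over 26 such pairs, and 23 pairs differed by more. In plasma vesicles they differed by 5.88, against a median of 3.37 over 17 pairs, and 5 pairs differed by more. Those were led by miR-183-5p at 3.17 and miR-96-5p at -6.29, miRNAs of sensory and epithelial cells, and by miR-127-3p at 2.94 and miR-433-3p at -5.20, from an imprinted cluster. The changes had opposite signs in 8 of the 17 plasma pairs and in 8 of the 26 BAT pairs.

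**Figure D4:**
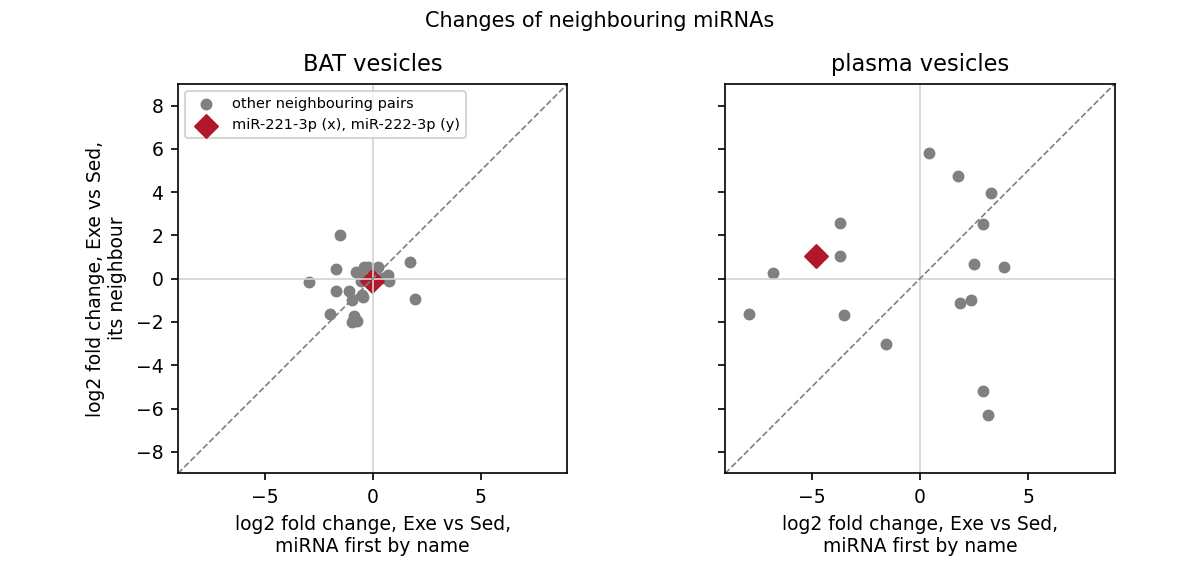
Log2 fold change, Exe against Sed, of one miRNA (x axis) and of its neighbour within 10 kb (y axis) in BAT vesicles (left, 26 pairs) and plasma vesicles (right, 17 pairs); the red diamond is miR-221-3p with miR-222-3p, grey points are other pairs and the dashed line marks equal change. BAT pairs cluster near 0 with the members at -0.053 and -0.087, and plasma pairs scatter widely with the members at -4.82 and 1.06.

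The miRNAs most like each member were those with the highest Pearson r of log2(CPM + 1), given as descriptions, since all share libraries and depth and the sources form separate clusters. Over the 10 libraries and 144 candidates, miR-221-3p was most like miR-194-5p (r = 0.952), miR-30b-5p (0.943), miR-181b-5p (0.940), miR-33-5p (0.936) and miR-135b-5p (0.898). Each of these had few reads in Exe plasma beside Sed plasma, as with miR-194-5p at 1 to 6 against 168 to 255 reads. For miR-222-3p the nearest were miR-191-5p (0.919), found in platelets, miR-204-5p (0.895), miR-652-3p (0.865), miR-21a-5p (0.846) and the liver miRNA miR-122-5p (0.845), all with more reads in the deeper plasma libraries than in the BAT libraries. Between the members r was -0.06.

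Within the 6 BAT libraries and 196 candidates the members went together more closely, with r = 0.702. The nearest to miR-221-3p there were miR-26a-5p (0.940), miR-152-3p (0.906), miR-140-5p (0.859), miR-484 (0.845) and miR-204-5p (0.833). To miR-222-3p the nearest were miR-709 (0.830), miR-342-3p (0.826), miR-125b-5p (0.816), miR-125a-5p (0.728) and miR-152-3p (0.711). With 11 to 55 reads per library for the members, counting error alone is large beside these differences.

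Other vessel and fat miRNAs give the setting. Of 10 tested vessel growth promoting miRNAs none passed in BAT vesicles, where 22.6% of all 199 tested did, and 10 are too few to tell these shares apart. The 10 had a median log2 fold change of 0.30 beside -0.06 over all 199 tested. Nearest to the threshold were miR-23a-3p (0.73 ± 0.30, edgeR adjusted p = 0.105), miR-23b-3p (0.54) and miR-296-5p (0.51). The endothelial miRNAs miR-126a-3p (-0.12 ± 0.32) and miR-126a-5p (0.32 ± 0.26), products of a gene within Egfl7 that sustain growth signals in vessels, did not pass, and their summed reads took 4.96 to 8.49% of Exe BAT and 6.35 to 10.6% of Sed BAT reads.

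Of 13 tested vessel growth restraining miRNAs 1 rose and 2 fell in BAT vesicles, with a median of -0.39, a share called near the 22.6% of all tested miRNAs. The falls were miR-29b-3p (-1.19 ± 0.26, edgeR adjusted p = 0.0139), which represses collagen genes, and miR-34a-5p (-1.05 ± 0.20, edgeR adjusted p = 0.0107), a target of p53. The rise was miR-320-3p (0.88 ± 0.23, edgeR adjusted p = 0.0234). Of 16 tested adipocyte miRNAs 2 rose and 2 fell, with a median of 0.09, again near that 22.6%, so neither count stands out for its list. The brown fat miRNAs miR-455-3p (1.57 ± 0.44, edgeR adjusted p = 0.0306) and miR-193b-3p (1.17 ± 0.29, edgeR adjusted p = 0.0167) rose, whereas the other brown fat markers did not pass, miR-365-3p at -1.08 ± 0.35 (edgeR adjusted p = 0.0547) and miR-378a-3p at 0.73 ± 0.62 (edgeR adjusted p = 0.414). The value of miR-455-3p rests on few reads, 9, 13 and 17 in Exe BAT and 6, 2 and 4 in Sed BAT. Of the remaining adipocyte miRNAs, miR-148a-3p (-1.29 ± 0.38, edgeR adjusted p = 0.036) and miR-30e-5p (-0.94 ± 0.26, edgeR adjusted p = 0.0306) fell.

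In plasma vesicles none of the 10 vessel growth promoting, 13 vessel growth restraining or 12 adipocyte miRNAs tested passed in edgeR. As that test called 0 of all 182 miRNAs, this says nothing about the lists. The listed miRNAs had medians of 0.13, 0.20 and -0.36 beside 0.32 over all 182. The smallest p among them were those of miR-10b-5p (6.85 ± 1.49), miR-27b-3p (-3.15 ± 0.80) and miR-31-5p (-7.95 ± 2.27) for promotion, of miR-34a-5p (-3.63 ± 0.76), miR-200c-3p (-6.55 ± 2.001) and miR-20a-5p (-6.18 ± 2.11) for restraint, and of miR-193b-3p, miR-30e-5p (-8.38 ± 2.96) and miR-378a-3p (-2.90 ± 1.33) for adipocytes. No fold change is given for miR-193b-3p, which had no reads in either Exe plasma library and 13 and 37 in Sed plasma. The endothelial miR-126a-3p was at -1.0 ± 0.63, and the pair of miR-126a arms summed to 1.32 to 1.77% of Exe plasma reads and 1.04 to 3.19% of Sed plasma reads. At -4.82 the value of miR-221-3p had 52 of the 182 tested miRNAs beyond it in absolute size, and that of miR-222-3p, at 1.06, had 145.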

How the data were processed

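Small RNA from BAT and plasma vesicles was sequenced in 10 libraries, grouped by their titles. The authors deposited 1 table per source with raw read counts per mature miRNA, per the file headers. Beside them the deposited BAT table holds RPM, reads scaled to a library total of which the listed miRNA reads make up 0.492 to 0.904%, and the deposited plasma table holds a second whole-number count of unstated making, used as an alternative only. Per the submitters' processing notes, the names are Bowtie 0.12.2, mm8 and mm9, with no role for any of them. The counter, miRNA release and trimming are not stated in the labels or file headers.

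Counts were tested across all miRNAs of a table with edgeR 4.0.16 in R 4.3.3 (quasi-likelihood, TMM, filterByExpr, robust, Benjamini-Hochberg, adjusted p under 0.05), in a joint fit for comparisons between sources, and checked on simulated data. SE is the log2 fold change over the square root of F. Fits with DESeq2 1.42.0 and limma 3.58.1, other scalings and filters, the replicate block and each library left out were the alternatives. Python 3.11.15 and matplotlib 3.10.9 drew plots. RefSeq sequences matched 605 of 721 listed names.

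Named beside the members were their opposite arms, seed mates, the 5 most alike miRNAs, and from the vessel, adipocyte and endothelial lists those past the threshold and the 3 of smallest p. Members and lists were chosen with earlier results of these data known.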

Additional observations from a re-analysis of the deposited data

Results flagged for a closer look

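The effect of exercise on miR-221-3p differed between BAT and plasma vesicles in the joint edgeR fit, by 5.02 on the log2 scale (effect in BAT minus effect in plasma, edgeR adjusted p = 0.0271). That fit shares its estimate of spread between the sources, although plasma varied more. The call was lost without a filter, and on leaving out Exe BAT replicate 1, Exe BAT replicate 2 or any Sed BAT library. The plasma side rests on 9 and 3 reads in Exe and 92 and 148 in Sed, and the BAT side on 15 to 26 reads in Exe and 11 to 32 in Sed. The share of miR-451a, which moves with the plasma groups, stands beside this result above, and its part was not tested. No group has the 4 libraries that a check for outlying libraries needs.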

How the results depend on the processing

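Alternatives were computed for each value. In BAT vesicles miR-221-3p was at 0.12 and miR-222-3p at 0.061 with upper-quartile factors, and at 0.11 and 0.090 with library totals recovered out of the RPM values. With 1 library left out they ran from -0.18 to 0.33 and from -0.15 to 0.078, and the difference of their log2 ratio from -0.10 to 0.29. In plasma miR-221-3p was at -5.004 with DESeq2, and with 1 library left out miR-222-3p ran from -1.10 to 2.49. The difference of effects of miR-221-3p was 4.79 without a filter and 4.47 to 6.54 with 1 library left out. That of miR-222-3p was 0.31 with upper-quartile factors, 0.22 with limma-voom, 0.00090 with the replicate block within source and -1.69 to 2.001 with 1 library left out.

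For BAT against plasma in Exe, miR-221-3p was at 3.54 with the replicate block and 2.93 to 4.90 with 1 library left out, and miR-222-3p at -2.77 with limma-voom and -4.58 to -0.98. In Sed, miR-221-3p was at -1.31 with DESeq2 (now past the threshold), 0.96 with library size alone and -1.79 to -1.19 with 1 library left out, passing without either Exe plasma library. There miR-222-3p was at -0.36 with library size alone, -2.13 with a mean of at least 50 counts, -2.995 with limma-voom, -2.99 with the block and -3.13 to -2.50 with 1 library left out. The cause was not tested.

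The number of miRNAs called in BAT was 21 with a mean of at least 50 counts, 25 with the block and 16 to 56 with 1 library left out, beside 45. In plasma, beside 0, it was 59 with DESeq2, 35 with limma-voom, 4 with upper-quartile factors, 10 with library size alone, 17 without a filter, 29 with a mean of at least 50 counts, 1 without the 3 most abundant, 7 with the block, 11 with the second values and 3 to 27 with 1 library left out. For the difference of effects it was 45 with the block and 36 to 119, beside 68. BAT against plasma gave 82 with a mean of at least 50 counts in Exe, beside 156, and in Sed 150 with DESeq2, 152 with library size alone and 77 to 149, beside 99.

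Deviations of same-numbered libraries from their group means correlated at -0.21 to 0.06 in BAT and -0.08 in plasma. Deviations within a group offset one another, and in plasma those of the 2 libraries are mirror images. These values therefore cannot decide whether replicate numbers pair the libraries. A mean of at least 50 counts leaves out both members in BAT and miR-221-3p in the joint fit. Depth limits miR-221-3p most, where 3 reads are worth 17.4 to 28.8 unscaled CPM in BAT and 1.67 to 2.48 in plasma. Leaving out 1 plasma library leaves 1 in its group, assumed to vary like the other group. The second values for the log2 ratio were chosen after seeing the data.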
